A study of Rattus norvegicus with 9 samples.

Results

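S100 proteins are small calcium-binding proteins of vertebrates, and the 8 genes described here are 7 of them, S100a1, S100a4, S100a6, S100a8, S100a9, S100a10 and S100a11, together with Ager, the gene of the receptor for advanced glycation end products (RAGE), at which several S100 proteins act as ligands. They were chosen by gene symbol, and all 8 were found among 32883 genes in the count and TPM tables and were among the 14089 genes tested. Bulk liver RNA was sequenced from 9 male Sprague-Dawley rats aged 8 to 11 weeks, 3 in each of 3 groups. Normal rats had no disease induced. In the other groups acute-on-chronic liver failure (ACLF) was induced by bile duct ligation (BDL) for 21 days and then lipopolysaccharide (LPS) at 0.25 mg/kg, and 1 h after LPS the blood was led through an extracorporeal circuit for 2 h. The circuit of the empty group held no cells and no adsorption column. That of the UTOpiA group held, in tandem, a granulocyte and monocyte adsorption column and alginate-encapsulated hepatocyte-like cells derived from human iPSCs. Both ACLF groups therefore shared BDL, LPS, anaesthesia, heparin and the circulation itself, none of which the normal rats are described as having had, and their livers came from rats that survived to 24 h after LPS.

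An S100 protein usually forms a dimer, and calcium bound at its EF-hand motifs exposes a surface for partner proteins. S100a8 and S100a9 form calprotectin, which is stored at high concentration in the cytosol of neutrophils and is also made by monocytes. Released by damaged or activated cells, calprotectin acts through Toll-like receptor 4 (Tlr4) and RAGE, and for this reason such proteins are called alarmins. S100a10 and S100a11 bind annexin A2 and annexin A1 at membranes, S100a4 and S100a6 are abundant in fibroblasts, macrophages and epithelia, and S100a1 is best known from muscle, where it binds calcium-release channels.

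The total count per library ranged from 14241172 to 17321677, and the counts of Alb, the albumin gene, made up 13.3% to 14.9% of the total of a normal liver and 1.54% to 3.91% of that of an ACLF liver. TPM, the deposited values scaled by gene length, is used for levels, and log2 fold changes come from the edgeR fit on counts. A gene is called higher or lower when its adjusted p is under 0.05 and it differs by more than 2-fold. The replicates are labelled as biological replicates, and p-values measure the spread between these rats. In a bulk sample, a change in the number of cells of a type and a change in the RNA per cell cannot be told apart.

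Of the 8 genes, 5 had a RefSeq promoter (250 bases before and 50 after the start, build GRCr8), namely S100a4, S100a6, S100a9, S100a11 and Ager. S100a1, S100a8 and S100a10 are named only. The 4 S100 promoters are shown because they differ in exact matches to TATAAA and GGGCGG, while all 4 genes were called higher in both ACLF groups. Capitals mark a TATA box (TATAAA) or a GC box (GGGCGG), searched on both strands, and positions count the start base as 1 and the base before it as -1. The regions are chr2:178490573-178490872 on the minus strand for S100a9, and on the plus strand chr2:178388279-178388578 for S100a4, chr2:178398287-178398586 for S100a6 and chr2:181874882-181875181 for S100a11.
S100a9: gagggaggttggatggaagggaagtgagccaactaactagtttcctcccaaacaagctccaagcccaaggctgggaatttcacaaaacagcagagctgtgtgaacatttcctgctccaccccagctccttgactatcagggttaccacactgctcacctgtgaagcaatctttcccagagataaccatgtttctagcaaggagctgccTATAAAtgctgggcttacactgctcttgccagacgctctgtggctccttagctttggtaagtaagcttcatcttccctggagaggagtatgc
S100a4: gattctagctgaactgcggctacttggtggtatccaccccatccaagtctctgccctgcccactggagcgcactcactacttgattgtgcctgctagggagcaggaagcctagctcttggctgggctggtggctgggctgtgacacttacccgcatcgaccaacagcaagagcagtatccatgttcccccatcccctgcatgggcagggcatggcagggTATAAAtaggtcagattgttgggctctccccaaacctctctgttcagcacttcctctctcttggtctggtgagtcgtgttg
S100a6: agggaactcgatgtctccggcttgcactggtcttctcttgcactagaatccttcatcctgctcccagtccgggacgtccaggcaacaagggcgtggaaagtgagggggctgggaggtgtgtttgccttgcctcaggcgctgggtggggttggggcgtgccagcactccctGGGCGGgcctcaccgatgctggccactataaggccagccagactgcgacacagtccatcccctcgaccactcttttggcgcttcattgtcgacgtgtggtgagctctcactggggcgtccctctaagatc
S100a11: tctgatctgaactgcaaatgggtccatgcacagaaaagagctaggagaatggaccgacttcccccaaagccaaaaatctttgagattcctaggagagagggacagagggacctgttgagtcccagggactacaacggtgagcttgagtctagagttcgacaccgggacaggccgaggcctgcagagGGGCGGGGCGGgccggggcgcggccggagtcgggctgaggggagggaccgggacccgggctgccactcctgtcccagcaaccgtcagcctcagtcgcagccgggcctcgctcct

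The promoters of S100a9 and S100a4 held TATAAA, with its first base at -42 and -31, and no GC box. Those of S100a6 and S100a11 held no TATAAA, and their GC boxes began at -80 in S100a6 and at -64 and -59 in S100a11, where the matches overlap by 1 base. Variants of TATAAA, such as the tataag in the S100a6 sequence, were not searched, so a TATA box of another form is not excluded. The TATA box was in 14.3% and the GC box in 34.9% of 27457 RefSeq promoters of the same length. None of the 5 promoters held TGANTCA (AP-1, in 7.33% of promoters), TTGCNNAA (C/EBP, 10.5%), TTCNNNGAA (STAT, 8.68%) or the NF-kB consensus (4.16%). A looser form of the NF-kB motif, with its central bases free, had been searched first and was in 48.5% of promoters. It matched 2 times in S100a4, 3 times in S100a6 and 4 times in S100a11, partly over the GC boxes, and not in S100a9 or Ager, and the stricter consensus was chosen after those matches were seen. The Ager promoter held none of these motifs. A match is a description of the letters in these windows.

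In the coordinates of the deposited tables (build rn6 per the submitters' processing notes) all 7 S100 genes lie on chromosome 2. S100a1 (ENSRNOG00000012410, chr2:189900667-189903219), S100a4 (ENSRNOG00000011821, chr2:189997129-189999604), S100a6 (ENSRNOG00000011647, chr2:190007216-190008511), S100a8 (ENSRNOG00000011557, chr2:190073815-190074354) and S100a9 (ENSRNOG00000011483, chr2:190097554-190100276) stand within 199.6 kb. S100a1 and S100a9 are on the minus strand and the other 3 on the plus strand. S100a11 (ENSRNOG00000010105, chr2:193866951-193868502) and S100a10 (ENSRNOG00000023226, chr2:193892589-193901236), both on the plus strand, lie together in 34.3 kb after a gap of 3.77 Mb. Ager (ENSRNOG00000000439, chr20:4363152-4366079, plus strand) lies inside LOC103689965, which is annotated on the minus strand and had 76.9 to 217 TPM. Whether the counting used strand is not given in the sources used here, so reads of Ager could be shared with or lost to that gene.

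The first question was how far these genes differed between ACLF livers of the empty group and normal livers. All 7 S100 genes rose, from 2.63-fold for S100a1 to 158-fold for S100a8, and Ager did not pass the test. Among all genes tested, 20.7% were called higher and 11.1% lower, and the median log2 fold change was 0.04 over all genes tested and 4.42 over the 8 genes. S100a4, S100a8 and Ager had fewer than 10 counts in every normal liver and S100a9 in 2 of the 3, so that these 4 could pass the filter on low counts only through the ACLF livers.

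The calprotectin genes showed the largest changes. S100a8 stood at 1.33, 0.312 and 1.85 TPM in the 3 normal livers, at 250.1, 75.5 and 503 TPM in empty livers and at 177, 236 and 84.6 TPM in UTOpiA livers. S100a9 stood at 3.55, 1.78 and 0.440 TPM in normal livers, at 272, 98.3 and 565 TPM in empty livers and at 199.7, 257 and 84.1 TPM in UTOpiA livers. For both genes every ACLF liver was above every normal liver, the third empty liver was the highest of all, and the ACLF groups overlapped. The log2 fold change of the empty group against normal livers was 7.30 (SE 0.85, edgeR quasi-likelihood test, adjusted p = 0.000333) for S100a8 and 6.79 (SE 0.82, adjusted p = 0.000377) for S100a9. These folds rest on few reads in normal livers, with 4, 1 and 6 counts of S100a8 and 15, 8 and 2 of S100a9. Without the third empty liver the log2 fold changes were 6.64 for S100a8 and 6.14 for S100a9, and without the first normal liver that of S100a9 was 7.55, all still called.

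The 2 subunits were at similar TPM in every ACLF liver. The ratio of S100a8 to S100a9 was between 0.768 and 0.921 in empty livers and between 0.887 and 1.01 in UTOpiA livers, while in normal livers it was 0.374, 0.175 and 4.20 on the few counts above. Over the 6 ACLF livers their log2 CPM had a Pearson r of 0.99 (Spearman rho 1.0), and r was 0.996 without the 2 livers farthest from the median of S100a8. Their TPM summed to between 2.09 and 4.88 in normal livers, between 174 and 1068 in empty livers and between 169 and 493 in UTOpiA livers.

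S100a4 and S100a6, neighbours in the block, were much higher in ACLF at different levels. S100a4, also called fibroblast-specific protein, stood at 0.766, 1.44 and 1.42 TPM in normal livers, at 30.3, 8.81 and 44.6 TPM in empty livers and at 11.1, 25.1 and 7.64 TPM in UTOpiA livers. S100a6, or calcyclin, stood at 8.21, 12.2 and 4.92 TPM in normal livers, at 290.3, 153 and 649.7 TPM in empty livers and at 153, 329 and 116 TPM in UTOpiA livers. No ACLF liver overlapped the normal livers for either gene. The log2 fold change of the empty group against normal livers was 3.96 (SE 0.64, edgeR, adjusted p = 0.00116) for S100a4 and 4.88 (SE 0.59, adjusted p = 0.000385) for S100a6, and 4.26 for S100a6 without the third empty liver (adjusted p = 0.000655).

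S100a11 was the most abundant of the 8 genes in every ACLF liver. It stood at 14.7, 20.6 and 8.60 TPM in normal livers, at 780.3, 897 and 1996 TPM in empty livers and at 519, 1181 and 349.6 TPM in UTOpiA livers. Its median rank by TPM among 22250 protein-coding genes was 4597 in normal, 122 in empty and 219 in UTOpiA livers. It rose by 57.1-fold in the empty group (log2 fold change 5.83, SE 0.53, edgeR, adjusted p = 0.000107). RefSeq lists S100a11-like loci elsewhere in the genome, and reads shared with such copies would be lost from a count of uniquely mapped reads.

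S100a10, also known as p11, was the most abundant of the 8 in normal livers, at 22.0, 26.3 and 26.1 TPM. It stood at 198, 382 and 449 TPM in empty livers and at 217, 339 and 102 TPM in UTOpiA livers. The groups with ACLF were again separate from the normal group, and the empty group was 9.50-fold above it (log2 fold change 3.25, SE 0.35, edgeR, adjusted p = 0.000185).

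S100a1 had the smallest change of the 7 S100 genes. It stood at 5.26, 4.13 and 4.48 TPM in normal livers, at 10.2, 20.9 and 22.0 TPM in empty livers and at 11.7, 15.97 and 9.14 TPM in UTOpiA livers, on 10 to 12 counts per normal liver and 24 to 59 per ACLF liver. Its log2 fold change in the empty group was 1.40 (SE 0.37, edgeR, adjusted p = 0.0124).

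Ager stood at 0.443, 0.298 and 0.352 TPM in normal livers, at 1.07, 0.385 and 3.18 TPM in empty livers and at 0.843, 0.823 and 0.494 TPM in UTOpiA livers. The receptor gene was thus the least abundant of the 8 in every liver, with 5 to 7 counts per normal liver and 7 to 59 per ACLF liver, and the second empty liver lay within the normal values. Its log2 fold change in the empty group was 1.51 (SE 0.68, 95% confidence interval -0.03 to 3.04, edgeR, adjusted p = 0.0948). It depended on single empty livers, being 1.95 without the second (adjusted p = 0.0161, called) and 0.54 without the third (adjusted p = 0.512, not called).

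**Figure D1:**
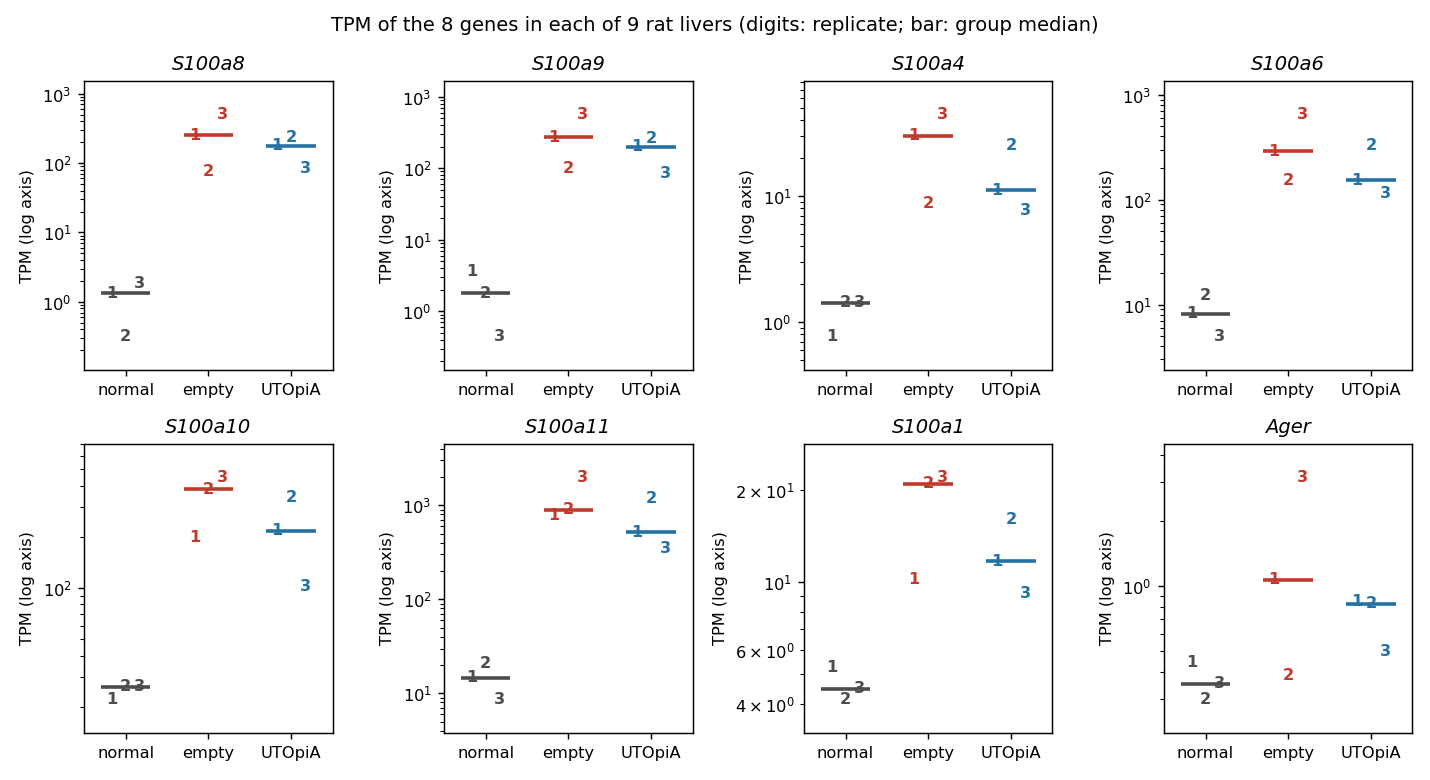
TPM of each of the 8 genes (log axis, a separate scale for each gene) in the 9 livers, with digits for the replicate and a bar for the group median. For the 7 S100 genes every ACLF liver lies above every normal liver, the third empty liver is the highest, and the UTOpiA livers overlap the empty livers, the farthest below them being the third UTOpiA liver for S100a11, at 349.6 TPM against 780.3 in the lowest empty liver. For Ager the second empty liver, at 0.385 TPM, lies among the normal livers.

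On TPM, 7 of the 8 genes had all 3 empty livers above all 3 normal livers, against 53.4% of all genes tested, and Ager overlapped. For each of the 7 the two-sided exact permutation test gave p = 0.1, which is the smallest it can give with 3 livers against 3.

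The same question was asked of the UTOpiA group against the same normal livers. The 7 S100 genes were again called higher, against 18.2% of all genes tested (6.81% were called lower), and all 8 genes had every UTOpiA liver above every normal liver on TPM, against 39.0% of all genes tested. S100a8 was 106-fold higher (log2 fold change 6.73, SE 0.85, edgeR, adjusted p = 0.000687), S100a9 71.6-fold (log2 fold change 6.16, and 6.93 without the first normal liver) and S100a11 35.2-fold (log2 fold change 5.14, SE 0.52, adjusted p = 0.000248). S100a6 was 17.9-fold, S100a4 9.001-fold and S100a10 6.69-fold higher. S100a1 only just passed both thresholds, at 2.08-fold (log2 fold change 1.06, SE 0.38, adjusted p = 0.0492), and lost its call with DESeq2 (adjusted p = 0.0512) and in 20 of 27 alternative settings. Ager was not called (log2 fold change 0.63, SE 0.71, adjusted p = 0.5025). Both comparisons use the same 3 normal livers, so their similarity is not independent evidence.

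The comparison of the UTOpiA group with the empty group addresses the cells and the adsorption column, since the circuit was common to both, but only among survivors. The paper reports that most rats of the empty group died, while survival was highest in the UTOpiA group. The empty livers may therefore come from a more strongly selected set of rats, and the part of this selection in the differences was not tested. None of the 8 genes was called, by edgeR or by DESeq2, and 0 of the 8 had an unadjusted p under 0.05. Over all genes tested edgeR called 0.0% higher and 0.0% lower, with 1456 genes at an unadjusted p under 0.05, and DESeq2 called 0.511% lower. All 8 log2 fold changes were below 0, against 49.8% of all genes tested, with a median of -0.66 against 0.00 over all genes. Genes below 0 with an unadjusted p under 0.05 made up 4.56% of all genes tested. On TPM, 8.62% of all genes tested had every UTOpiA liver below every empty liver, and none of the 8 did. The lean below 0 was not particular to these genes. Of the marker lists described below, the median was -0.66 for neutrophil (7 of 8 below 0), -0.59 for cholangiocyte (9 of 10) and -1.01 for erythroid genes (4 of 5). It was -0.28 for macrophage, -0.42 for B cell, -0.01 for T cell, 0.01 for stellate cell and fibroblast, 0.05 for endothelial and 0.45 for hepatocyte markers.

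The estimates ranged from -0.34 for S100a1 to -0.87 for Ager, and each interval reached from below -1, a halving, to above 0. For S100a8 the log2 fold change was -0.57 (95% confidence interval -1.83 to 0.69, edgeR, adjusted p = 0.756) and for S100a9 -0.63 (-1.94 to 0.68, adjusted p = 0.743). For S100a11 it was -0.70 (-1.65 to 0.25, adjusted p = 0.6005) and for S100a10 -0.50 (-1.21 to 0.20, adjusted p = 0.614). S100a4 gave -0.79 (-1.96 to 0.37) and S100a6 gave -0.71 (-1.81 to 0.39). Differences of this size could not be told from the spread between rats. The direction rested on the third empty liver for 3 genes, since without it the log2 fold change was 0.09 for S100a8, 0.02 for S100a9 and 0.09 for Ager, and that of S100a6 was -0.09.

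**Figure D2:**
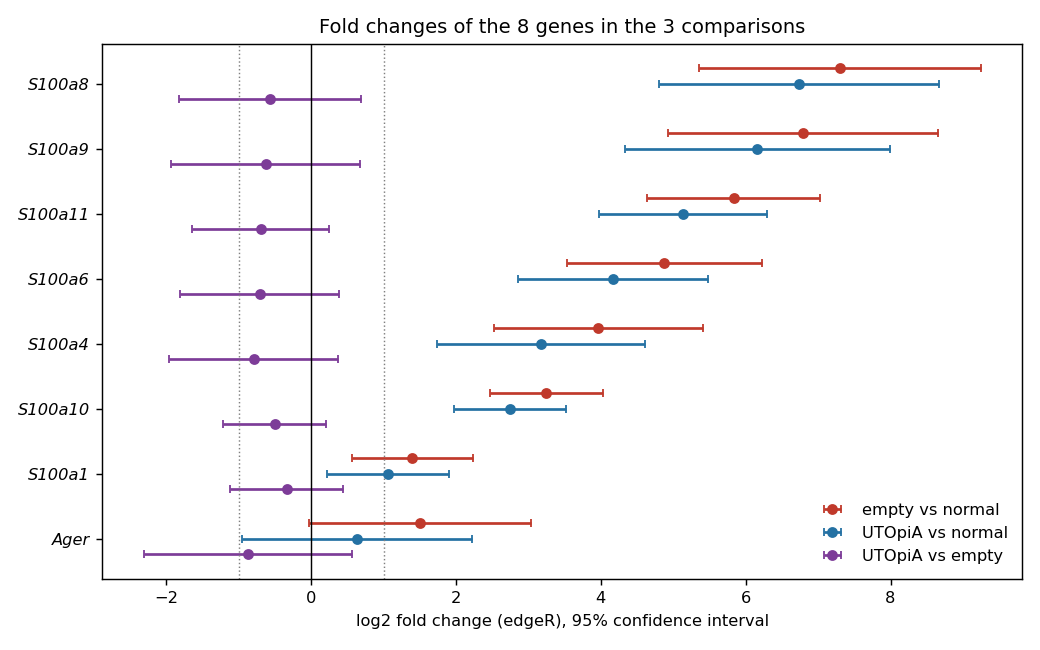
Log2 fold change from edgeR (x axis) for each gene, with 95% confidence intervals as bars, in the 3 comparisons, and dotted lines at a 2-fold change. The intervals against normal livers lie above 0 for the 7 S100 genes, those of Ager include 0, and all 8 intervals of the UTOpiA group against the empty group include 0.

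The ACLF livers differed from each other by more than the ACLF groups did. Within the empty group the highest liver exceeded the lowest by 8.26-fold for Ager, 6.66-fold for S100a8, 5.75-fold for S100a9, 5.07-fold for S100a4 and 4.25-fold for S100a6, but by only 2.16-fold for S100a1, 2.27-fold for S100a10 and 2.56-fold for S100a11. The order of the livers divided the genes in the same way. S100a4, S100a6, S100a8, S100a9 and Ager were lowest in the second empty liver, whereas S100a1, S100a10 and S100a11 were lowest in the first. In the UTOpiA group all 7 S100 genes were highest in the second liver and lowest in the third.

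Over the 6 ACLF livers, Pearson r of log2 CPM across the 28 pairs of genes ran from -0.10 to 0.99 with a median of 0.70. S100a4 had r of 0.93 with S100a8 and with S100a9 and 0.96 with S100a6, and without the 2 livers farthest from the median of S100a4 these were 0.86, 0.81 and 0.97. S100a10 had r of 0.23 with S100a8 and 0.34 with S100a9 against 0.83 with both S100a1 and S100a11. This contrast rested on single livers, since without the 2 farthest from the median of 1 gene of each pair r was 0.71 and 0.74 with S100a8 and S100a9 against 0.52 and 0.54 with S100a1 and S100a11. These 6 points are 2 groups of 3 livers with large differences in composition, and the values are given as a description.

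**Figure D3:**
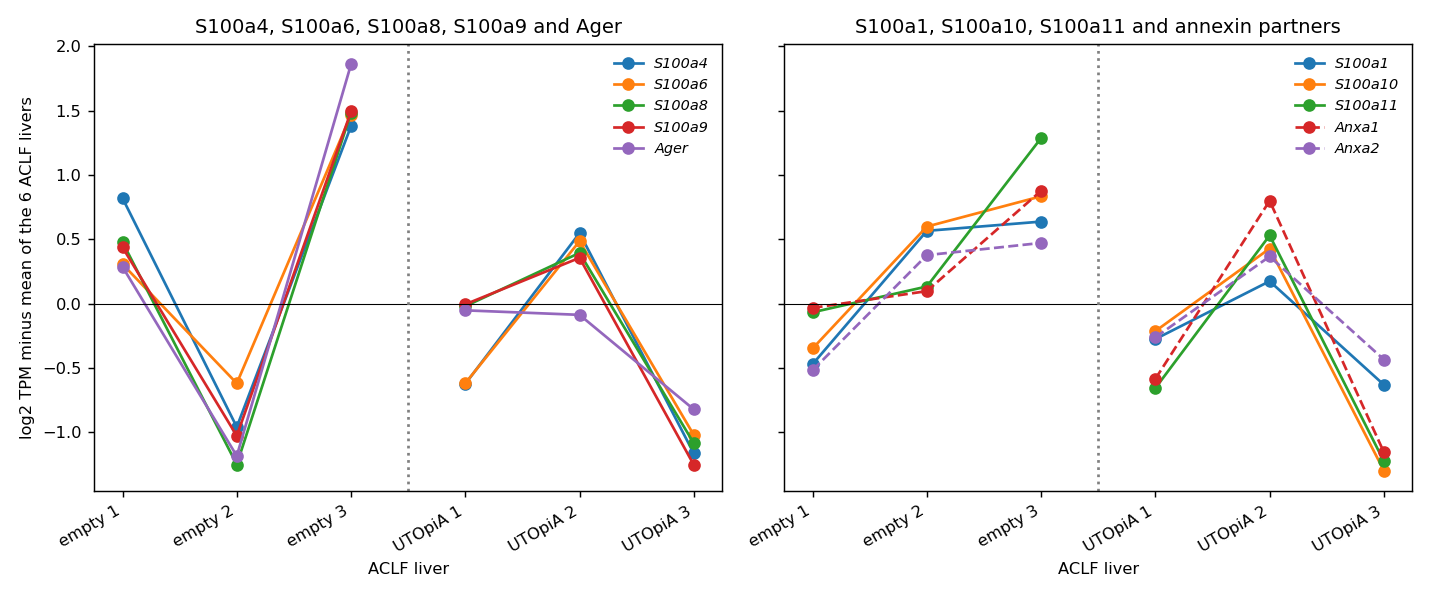
Log2 TPM of single genes minus their mean over the 6 ACLF livers (y axis) by liver (x axis), with annexin genes as dashed lines. In the left panel all 5 genes are lowest among empty livers in the second, while in the right panel S100a1, S100a10, S100a11, Anxa1 and Anxa2 are lowest in the first.

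Not every S100 gene of the block was detected well enough to test. The block from S100a1 to S100a9 holds 12 annotated genes, of which 7 were tested and 6 called higher in the empty group, against 20.7% of all genes tested. The 6 were the 5 S100 genes already described and S100a13 (log2 fold change 1.10, SE 0.28, edgeR, adjusted p = 0.00926). S100a16 passed the adjusted p but not the 2-fold threshold (log2 fold change 0.48, SE 0.14, adjusted p = 0.0183), with every ACLF liver above every normal liver on TPM. S100a3 had 0 counts in normal livers and at most 11 in any liver, S100a5 at most 1, and S100a7a 0 in all 9. These genes next to S100a4, S100a6 and S100a8 stayed at no more than 11 counts in livers where those 3 were well above their normal levels, and were not tested.

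**Figure D4:**
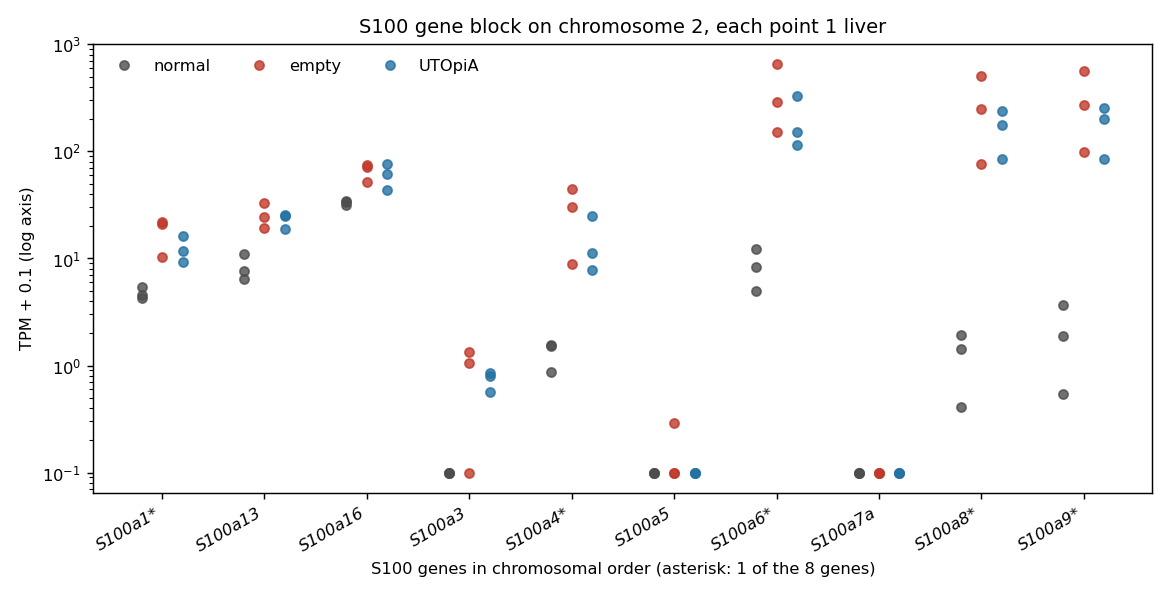
TPM + 0.1 (log axis) of the S100 genes of the block in chromosomal order, with each point 1 liver. S100a3, S100a5 and S100a7a lie at or near the floor of 0.1 between genes such as S100a6 and S100a8 that reach 649.7 and 503 TPM.

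Of 13 further S100 genes listed, including those of the block, 10 were found and 4 tested, and S100b and S100g were the tested genes outside the block. S100b, best known from glia, was called higher in both ACLF groups, with 0, 4 and 0 counts in normal livers, 54, 90 and 108 in empty livers and 74, 151 and 44 in UTOpiA livers. Its log2 fold change in the empty group was 5.18 (SE 0.81, edgeR, adjusted p = 0.000928), and with so few normal counts it too could be tested only through the ACLF livers. S100g, the vitamin D-dependent calbindin, was not called (log2 fold change -1.51, SE 0.95, adjusted p = 0.217). In the UTOpiA group against the empty group 0 of the 4 were called.

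Of 9 partner genes of S100 proteins, all tested, the empty group had 5 called higher and 0 lower (median log2 fold change 1.23), against 20.7% and 11.1% of all genes tested, and the UTOpiA group had 4 called higher, against 18.2%. Anxa2, the partner of S100a10, stood at 19.8, 21.7 and 20.1 TPM in normal livers, at 167, 309.8 and 331 TPM in empty livers and at 199, 308 and 177 TPM in UTOpiA livers. It rose by 3.18 on the log2 scale (SE 0.24, edgeR, adjusted p = 5.5e-05), close to the 3.25 of S100a10. Anxa1, the partner of S100a11, rose by 4.37 (SE 0.47, adjusted p = 0.000217). Anxa5 (3.77), Ahnak (3.05), a large scaffold that binds S100a10 with Anxa2, and Anxa4 (1.23) were the others called, while Anxa6, Anxa11 and Myh9 were not. Cacybp, which encodes the calcyclin-binding protein, a partner of S100a6, lay lower in every ACLF liver than in every normal liver but short of 2-fold, with a log2 fold change of -0.95 in the empty group (SE 0.15, edgeR, adjusted p = 0.000941) and -0.97 in the UTOpiA group (adjusted p = 0.00123).

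Of 10 genes of receptors and their signalling partners, 8 were found and tested. In the empty group 4 were called higher and 0 lower, against 20.7% and 11.1% of all genes tested, the 4 being Tlr2 (log2 fold change 3.38), Mcam (2.28), Cd14 (1.88) and Tlr4 (1.39). The median of the list was 1.05, and the UTOpiA group had 3 called higher, against 18.2%. Cd14, the co-receptor that passes LPS to Tlr4, was the gene of this list with the largest difference between the ACLF groups. It stood at 34.2, 20.02 and 19.5 TPM in normal livers, at 136, 128 and 123 TPM in empty livers and at 39.5, 74.1 and 28.9 TPM in UTOpiA livers. Every UTOpiA liver was below every empty liver, but the log2 fold change of -1.31 (SE 0.27, edgeR) did not pass after adjustment (adjusted p = 0.208). Myd88, the adaptor of these receptors, was also below in every UTOpiA liver (-0.55, adjusted p = 0.348), and 0 of the 8 were called.

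Other alarmin genes moved in both directions. In the empty group 3 of 8 were called higher, namely Lgals3 (log2 fold change 3.24), which encodes galectin-3, Hmgb2 (1.91) and Cirbp (1.22), and 1 lower, Il33 (-1.27, SE 0.37, edgeR, adjusted p = 0.0188), against 20.7% and 11.1% of all genes tested. The gene labelled Hmgb1, the name of the prototype alarmin, was not called (0.41, adjusted p = 0.1005). It is placed at chr16:37500017-37502237 and had 2.86 to 7.57 TPM across the livers. Whether this locus holds all reads of Hmgb1 was not tested. In the UTOpiA group against normal livers 2 of 8 were called higher and 0 lower, against 18.2% and 6.81% of all genes tested, and 0 were called between the ACLF groups. The median of this list in the empty group was 0.25, against 0.04 for all genes tested.

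Markers of several other cell types were also called higher in ACLF livers, where 20.7% of all genes tested were called higher and 11.1% lower in the empty group and 18.2% higher in the UTOpiA group. Of 19 neutrophil markers 8 were tested, and these 8 were called higher in both groups, but 6 of them had at least 10 counts in no more than 1 normal liver and so could be tested only through the ACLF livers. Their summed TPM of 5.35 to 6.35 in normal, 337 to 2549 in empty and 5374 to 6336 in UTOpiA livers was mostly that of Lcn2, which hepatocytes also make in the acute phase. Without Lcn2, a step taken after its values were seen, the sum was 1.32 to 2.58 in normal livers, 46.4, 26.4 and 85.4 in the 3 empty livers and 25.9, 39.6 and 15.2 in the 3 UTOpiA livers, which is the order of livers of S100a8 and S100a9 in each ACLF group. The UTOpiA order was also that of the macrophage, cholangiocyte and stellate cell sums, whose empty livers stood in other orders. The granule genes Mpo and Elane reached 3 and 9 counts at most, Ltf and Cxcr1 were at 0 in all livers, and the 11 markers not tested had 128 counts in all. Macrophage markers (11 of 15 called higher in the empty group, 1 of the 11 with the same limit) summed to 547 to 658 TPM in normal, 2138 to 3656 in empty and 1139 to 3571 in UTOpiA livers.

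Of 10 cholangiocyte markers tested 9 were called higher in the empty group, but 7 of the 9 had at least 10 counts in no more than 1 normal liver, so the count was partly set by the filter. The list summed to 27.1 to 36.5, 416 to 889.9 and 187 to 605 TPM in the normal, empty and UTOpiA groups, with the empty livers in the order of S100a10 and S100a11. Stellate cell and fibroblast markers (10 of 13 called higher, 2 of the 10 with that limit) summed to 124 to 146, 1165 to 1302 and 666 to 1535 TPM. Of 12 hepatocyte markers 8 were called lower and 1, Pck1, a gluconeogenic enzyme, higher (log2 fold change 3.10) in the empty group. They summed to 172900 to 189000, 44900 to 83870 and 51690 to 79590 TPM, so that the labelled tissue was plain in every library. Of the other lists in the empty group, T cell markers had 3 of 4 called higher and B cell markers 0 of 2, all 6 with that limit. Endothelial markers had 3 called higher and 1 lower of 9 (median log2 fold change -0.03), and erythroid genes had 4 called higher, 1 of them with that limit, and 1 lower of 5. The erythroid genes summed to 109 to 312 TPM in normal, 2530 to 4047 in empty and 837.5 to 1401 in UTOpiA livers. Their sums thus did not overlap between the ACLF groups, though 0 of the 5 genes were called there. The part of these cell types in the S100 values was not tested.

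**Figure D5:**
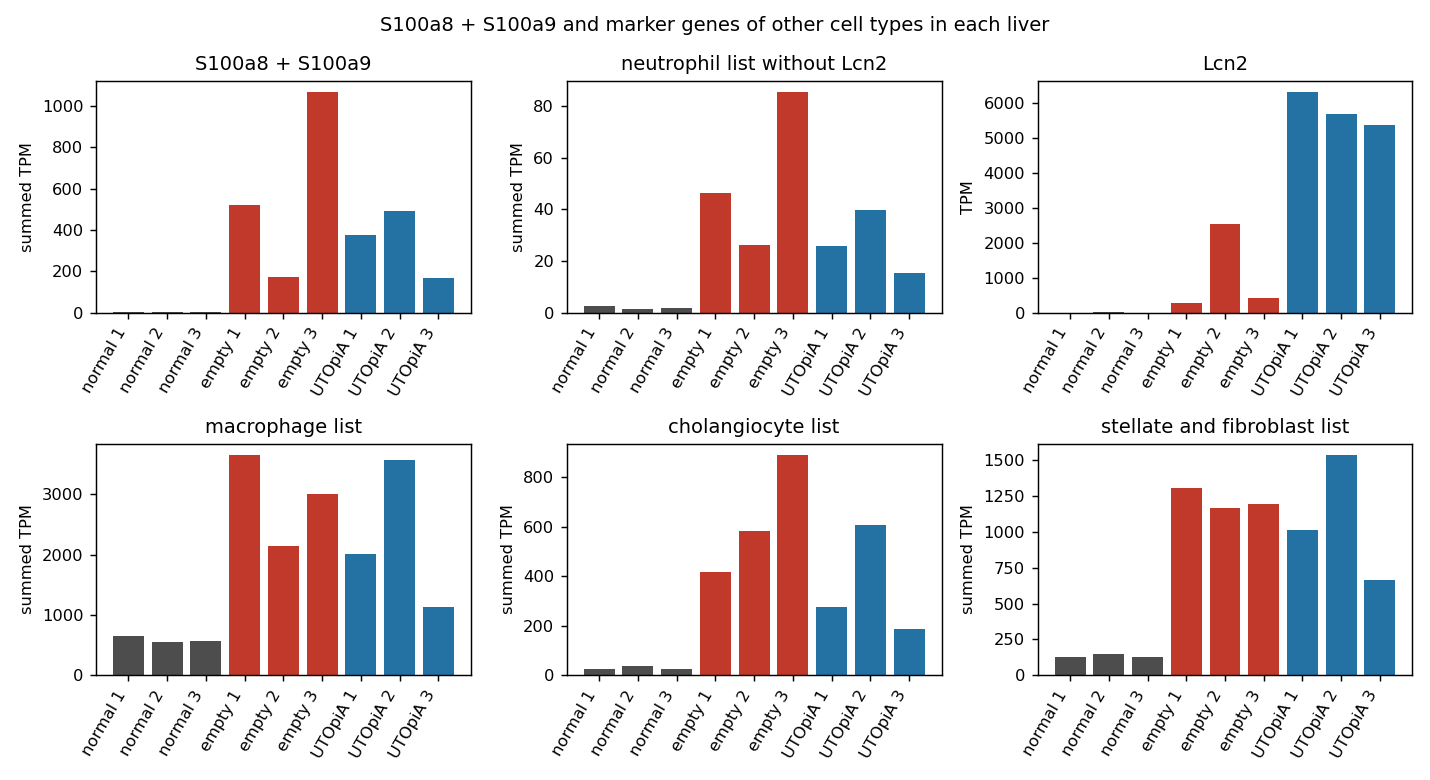
TPM of S100a8 plus S100a9, of Lcn2 and of marker lists, summed (y axis, from 0), in each liver. The neutrophil list without Lcn2 has the livers of each ACLF group in the order of S100a8 plus S100a9, with the third empty liver highest at 85.4 and 1068 TPM, the UTOpiA order being common to the 4 lists shown, whereas Lcn2 is highest in the 3 UTOpiA livers.

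The genes most like S100a8 over the 9 livers, by Pearson r of log2 CPM, were Mxra8 (0.998), Gltp, Chst14, Rgs10 and Pbx3 (0.993). Those most like S100a9 were Pik3cd (0.993), Serpinb1a, Tmem119, Tesc and Ntng2 (0.99), and those most like Ager were Rnf166 (0.977), Zfp646, Fam98c, Prdx5 and Slc29a3 (0.924). S100a9 itself ranked 223 in likeness to S100a8 (r 0.969), with the few reads of both genes in normal livers entering that value. All these correlations contain the difference between normal and ACLF livers that the genes share.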

How the data were processed

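Liver mRNA of 3 normal, 3 empty-group and 3 UTOpiA-group rats was sequenced. The authors deposited whole-number counts per gene, without normalisation, and TPM, scaled by gene length and library. The submitters' processing notes name Trimmomatic, HISAT2, featureCounts and rn6, whereas the paper's methods name Cutadapt and the mouse build GRCm38. The labels and the methods also name different directional library kits.

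Groups were taken from the sample labels. Counts were filtered with filterByExpr (14089 of 32883 genes), normalised by TMM and fitted with edgeR 4.0.16 (R 4.3.3) on all 9 libraries with the robust quasi-likelihood test, two-sided, with Benjamini-Hochberg adjustment over all genes tested. Calls needed an adjusted p under 0.05 together with more than a 2-fold change, and intervals are 95% confidence intervals. TPM of single genes were compared by two-sided exact permutation tests. Log2 CPM used a prior count of 2. DESeq2 1.42.0, limma 3.58.1 on log2(TPM + 1), other filters, median-of-ratios factors, a replicate block and each library left out were alternatives. The fits were tested on simulated data. Replicate libraries differed by more than counting noise, with a chi-square per degree of freedom of at least 17.6.

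The genes and lists were chosen with earlier results of these data known. Named genes were the 8 genes, called genes of the S100, partner, receptor and alarmin lists (the 4 largest for longer runs), abundant or absent markers, and the 5 genes most like S100a8, S100a9 and Ager. Other genes of the lists named for contrast, including Myd88, Hmgb1, Pck1 and uncalled partners, were chosen after their values were seen. S100a2, S100a14, S100p, Ly96 and Cd36 were not analysed here. The stricter NF-kB consensus replaced a looser form after its matches were seen. Promoter sequences are from RefSeq.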

Additional observations from a re-analysis of the deposited data

How the results depend on the processing

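The number of the 8 genes called higher was between 4 and 8 in the empty group and between 4 and 7 in the UTOpiA group against normal livers over 28 alternatives, and 0 were called in the UTOpiA group against the empty group under each of the 28. With at least 10 counts in every library it was 4 in both comparisons with normal livers, because only 4 of the genes were then tested. With each library left out it was between 7 and 8 in the empty group and between 6 and 7 in the UTOpiA group, the 8 being reached without the second empty liver, when Ager passed (1.95, and 1.99 with DESeq2, against 0.54 and 0.56 without the third). Of the log2 fold changes of single genes under the alternatives, 600 kept their direction and side of the threshold, 20, all of S100a1 in the UTOpiA group against normal livers, lost the call, the 2 of Ager above gained it, and 6 turned. Without the third empty liver the log2 fold change of the UTOpiA group against the empty group turned to 0.0886 for S100a8, 0.0196 for S100a9 and 0.0926 for Ager with edgeR, and to 0.0767, 0.0081 and 0.0799 with DESeq2. With each library left out the edgeR values ranged from -1.005 to 0.0886 for S100a8, from -1.043 to 0.0196 for S100a9 and from -1.317 to 0.0926 for Ager. The cause was not tested. DESeq2 with a library left out was added after seeing the data.

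Over all genes, the UTOpiA group against the empty group gave 0 calls with edgeR, 51 higher and 74 lower with DESeq2, and with edgeR 26 higher and 22 lower without the second empty liver and 32 higher and 17 lower without the second UTOpiA liver. With DESeq2 these became 351 higher and 139 lower, and 229 higher and 351 lower. The counts that the paper reports here, also by DESeq2 and at the same thresholds, lie close to the last pair. They exceed the 51 and 74 of the DESeq2 fit on all 9 libraries, and the reason was not tested. The fits on TPM shifted the median log2 fold change of all genes in the empty group from 0.04 to between 0.25 and 0.50. With the replicate block, 7 of the 8 genes were called higher in empty and 6 in UTOpiA livers against normal livers, and 0 between the ACLF groups. The deviations of same-numbered livers correlated between -0.18 and 0.06, and those of differently numbered livers between -0.19 and 0.29. This check showed no pairing by replicate number but cannot tell whether livers shared a day or batch. Counts of 1 to 15 in normal livers limit the folds of S100a4, S100a8, S100a9 and Ager.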
